A study of Mus musculus with 18 samples.

Results

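Ribosome footprints of NIH3T3 cells given Torin1 were compared with footprints of WT NIH3T3 cells, to find which mRNAs lost ribosomes, which kept them and which gained them. NIH3T3 is an established line of mouse fibroblasts, and Torin1 blocks the ATP site of the mTOR kinase in both mTOR complexes. The comparison took 6 of the 18 libraries of the series by their titles: 3 footprint libraries of WT-genotype cells given Torin1 at 200 nM for 3 h, and 3 of WT-genotype cells that the descriptions call vehicle-treated. The treatment protocol in the labels gives Torin1 for both groups alike, so the WT group rests on its titles and descriptions. All 6 come from 1 cell line, and whether replicates came from separate cultures is not labelled, so a p-value here measures the spread among 6 libraries, part of which may be technical. Of 24034 genes in the count tables, 10567 had enough reads to be tested.

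Ribosome profiling sequences the stretches of mRNA that ribosomes shield from nuclease, so the reads on a gene follow how many ribosomes translate its mRNA. The mTOR complex 1 couples nutrient and growth factor signals to translation: it phosphorylates the 4E-BP proteins, which otherwise hold the cap-binding factor eIF4E away from eIF4G, and the LARP1 protein and S6 kinases are further effectors. The mRNAs most sensitive to it are known as TOP mRNAs. They start with a C that is followed by a run of pyrimidines, and they encode ribosomal proteins, elongation factors and other parts of the translation machinery.

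Gene reads came to 12.27, 19.93 and 27.08 M in Torin1 replicates 1, 2 and 3, and to 12.03, 42.8 and 12.88 M in WT replicates 1, 2 and 3, after 27 rows named as dates, 5 summary lines and Tmem38b were left out. Tmem38b had taken 26.88, 0.091 and 12.84% of the gene counts in the Torin1 libraries and 9.417, 0.042 and 1.219% in the WT libraries. A pair of libraries stood apart in weakly read genes. Of 8147 genes with a mean of at least 10 CPM (read counts scaled to a common library size after TMM normalization), Torin1 replicate 2 had 0 reads on 105 and WT replicate 3 had 0 reads on 149, while the other 4 libraries had 0 reads on at most 12. Both stayed in the comparison, and counts without them are given below. The labelled cell type was checked against markers: all 8 fibroblast markers were detected, with a summed level of 11625 to 15522 CPM in the Torin1 libraries and 19996 to 26590 CPM in the WT libraries. The summed markers of adipocytes, muscle, epithelium, leukocytes with endothelium, and neurons with glia each reached at most 64.7 CPM in a Torin1 library and 50.5 CPM in a WT library. Reads on protein-coding genes were 97.5, 94.8 and 95.4% in Torin1 replicates 1, 2 and 3 and 98.8, 97.9 and 97.5% in WT replicates 1, 2 and 3, and the part of other RNAs in the results was not tested beyond a fit on protein-coding genes alone, which called 137 lower and 11 higher. In bulk libraries, fewer cells of a type and fewer footprints per cell cannot be told apart. The mRNA libraries of the series were not used here, so a change in an mRNA's amount and a change in ribosomes per mRNA cannot be told apart either, and a loss shared by all mRNAs would not show in scaled counts.

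The start sequences of some genes, chosen because they hold a run, show the TOP pattern. The lines below give 15 bases before the RefSeq transcription start and 15 from the start base on, on the gene's strand in build GRCm38.p6; capitals mark the C at the start and the unbroken pyrimidine run behind it. The first 7 genes fell under Torin1 and are shown as the pattern itself: Rps6 (chr4:86857353-86857382, minus strand), Rps18 (chr17:33955651-33955680, minus), Fau (chr19:6057932-6057961, plus), Rpl35 (chr2:39005117-39005146, minus), Gnb2l1 (chr11:48800345-48800374, plus), Eif3f (chr7:108934400-108934429, plus) and Atp5g2 (chr15:102671033-102671062, minus). The last 3 hold a run too but stayed within 2-fold: Shmt2 (chr10:127522430-127522459, minus), Cap1 (chr4:122886062-122886091, minus) and Fbln5 (chr12:101819105-101819134, minus).
Rps6: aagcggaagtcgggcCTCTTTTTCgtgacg
Rps18: tacgtcacttccgctCTCTCTTCCacagga
Fau: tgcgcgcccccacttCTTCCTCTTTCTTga
Rpl35: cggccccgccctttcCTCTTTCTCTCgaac
Gnb2l1: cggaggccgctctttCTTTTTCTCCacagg
Eif3f: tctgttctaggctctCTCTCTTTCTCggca
Atp5g2: ttcccgcgcccccgcCCCTCTCTgtcttct
Shmt2: atgcgcagggaacgcCTCTTTCactcgaac
Cap1: gttttcctcccccacCTCCCTTggaggcgg
Fbln5: gcgctctgacgggctCCCCTCCCagcgccg

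A C at the annotated start with at least 4 pyrimidines behind it was found on the gene's strand in 247 of the 8460 tested genes with a listed start (2.92%). Among genes held within 2-fold it was found in 33 of 1378 (2.39%). Starts were on hand for 99 of the 131 genes that fell and for 56 of 76 ribosomal protein genes, which is under 80% of each, so a count of the motif over those sets is void. Annotated starts can also be off by some bases. Many genes that fell, Eef1a1, Eef2, Tpt1 and Rps19 among them, have no such run at the listed base.

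Across the transcriptome, 131 genes fell under Torin1 and 9 rose (edgeR quasi-likelihood test, Benjamini-Hochberg adjusted p under 0.05), which is 1.24% and 0.0852% of the 10567 tested. In all of these genes the Torin1 and WT values did not overlap, as is usual for genes picked by a small p. Some genes that were not called, Actb and Atp5b among them, had no overlap either, and the share over all genes was not counted. At an unadjusted p under 0.05 in the same edgeR test, 639 of the 10567 genes were lower and 504 higher. For 1683 genes (15.9%) the 95% interval of the log2 change lay wholly between -1 and 1, so a loss or gain of 2-fold or more fell outside it; these are called held within 2-fold below. The remaining genes met neither rule, though some of their intervals excluded 0, such as that of Cd63 (-1.37 to -0.41, adjusted p = 0.0997). The median biological coefficient of variation was 0.532. Of the genes that fell, 69 stand in the lists of small- and large-subunit ribosomal proteins (52.7%). Another 20 belong to the lists of other TOP mRNAs, elongation factors, eIF3 or poly(A)-binding proteins. This leaves 42, among them Rpl36al, a paralog of a ribosomal protein gene. Of the falls, 77 were called under all 12 alternative analyses, and 12 in 6 or fewer: Vim in 4, Ran in 5, and Hsp90ab1, Ppia, Eif3e, Phgdh, Cct2, P4ha1, Crtap, Rpl36al, Rpn1 and Fabp5 in 6. The count of falls was 83 without Torin1 replicate 3 and 92 to 112 when another library was left out. The count of rises was 3 without Torin1 replicate 3, 5 without WT replicate 1, and 4 without WT replicate 2 or 3. The count held within 2-fold was 1015 without Torin1 replicate 1, and 984 and 1111 without WT replicates 1 and 2.

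The losses lay among the mRNAs with most reads. Genes were ranked by their mean CPM over the 6 libraries; the rank is one of reads, not of ribosomes per length of mRNA. Of ranks 1 to 50, 14 genes fell (28%), and of ranks 51 to 200, 39 fell (26%). The count was 42 of the next 300 genes, to rank 500 (14%), 18 of the next 500, to rank 1000 (3.6%), 13 of the next 1000, to rank 2000 (1.3%), and 5 of the next 3000, to rank 5000 (0.167%). Of the 5567 genes past rank 5000 edgeR called 0 in either direction, as did DESeq2, and 29 were lower and 92 higher at an unadjusted p under 0.05. The median standard error of the log2 change was 0.21 in ranks 1 to 50 and 1.15 past rank 5000, where 1880 genes had 0 reads in at least 1 library, so a fall of 1 on the log2 scale was smaller there than the median standard error.

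The median log2 change was lowest among the most read genes and higher in each rank group after the second. It was -0.32 for ranks 1 to 50, -0.36 for ranks 51 to 200, -0.21 for the group to rank 500, -0.07 to rank 1000, -0.05 to rank 2000, 0.06 to rank 5000 and 0.18 for the rest, against 0.06 over all genes. In the last group the Torin1 libraries differed in sign, with medians of 0.49, -0.19 and 0.34 in replicates 1, 2 and 3. Ribosomal protein genes took 25 of the 150 places at ranks 51 to 200 and 32 of the next 300. Without all genes of the translation machinery and TOP lists, the medians of the first 3 groups were -0.21, -0.14 and -0.12.

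**Figure D1:**
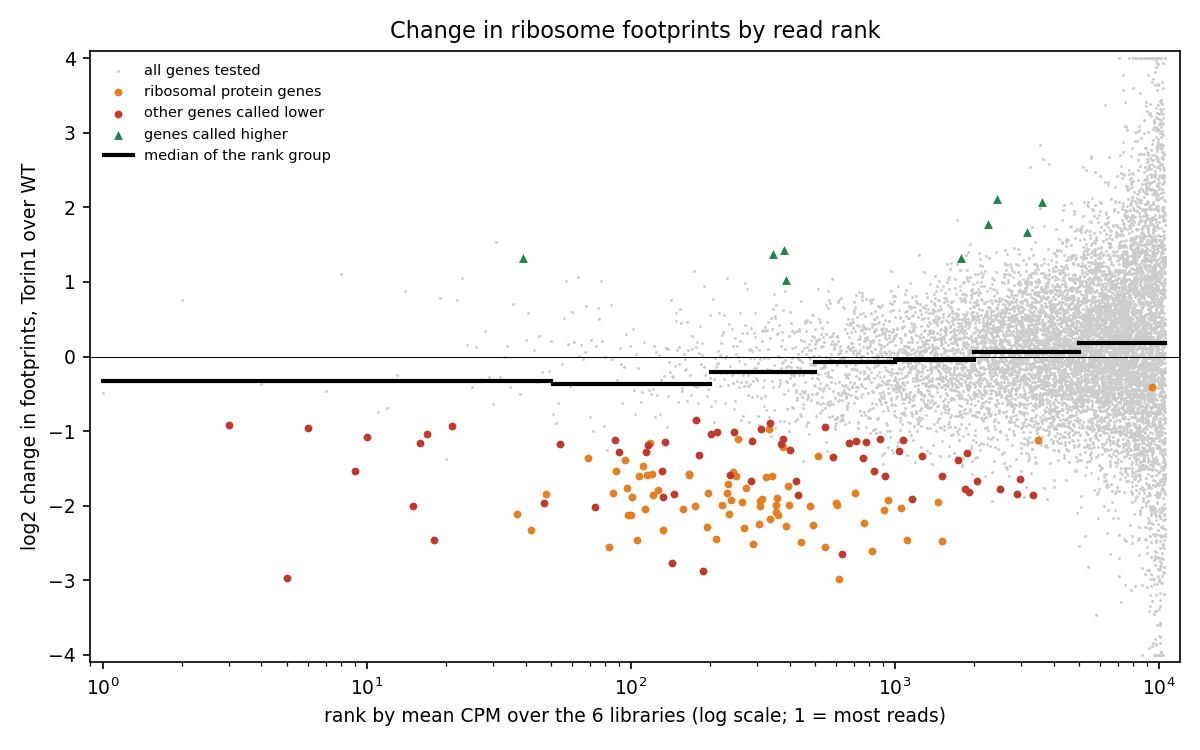
Log2 change in footprints, Torin1 over WT, on the vertical axis against rank by mean CPM over the 6 libraries on a logarithmic axis; 1 point per gene, with changes beyond 4 drawn at 4, and black bars for the median of each rank group (-0.32 for ranks 1 to 50, 0.18 past rank 5000). Ribosomal protein genes lie below 0 and mostly between ranks 50 and 1000, and the 9 genes called higher are scattered from rank 39 to rank 3598.

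Reads were spread over more genes in the Torin1 libraries. The genes needed to reach 50% of all gene reads numbered 635, 559 and 594 in Torin1 replicates 1, 2 and 3, against 443, 402 and 429 in WT replicates 1, 2 and 3. Genes of ranks 1 to 50 held 15.5, 16.6 and 17.03% of reads in the Torin1 libraries, against 18.1, 19.7 and 18.01% in the WT libraries. Genes past rank 5000 held 8.63, 8.04 and 8.51% in the Torin1 libraries, against 6.71, 6.31 and 6.49% in the WT libraries. In each of these shares the groups did not overlap. Ranked within each library, the first 50 genes held 0, 0 and 0 ribosomal protein genes in Torin1 replicates 1, 2 and 3, and 6, 7 and 8 in WT replicates 1, 2 and 3. The first 200 held 8, 4 and 6 ribosomal protein genes in the Torin1 libraries and 47, 35 and 48 in the WT libraries. Actb, Fn1, Vim, Pkm, Lrp1 and the small nucleolar RNA Snord57 stood among the first 10 genes of all 3 Torin1 libraries. Genes not classed as protein-coding took 5, 8 and 7 of the first 50 places under Torin1, against 0, 2 and 4 in WT. Eef1a1 stood at rank 3 in each WT library and at ranks 79, 97 and 87 in the Torin1 libraries.

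Ribosomal proteins form the 2 subunits of the ribosome. All 31 tested genes of small-subunit proteins fell, of 32 in the files, with a median log2 change of -1.996. Of 45 tested genes of large-subunit proteins, of 47 in the files, 38 fell, with a median of -1.77. Neither list had a gene that rose; at an unadjusted p under 0.05 edgeR found 0 higher in either, as did DESeq2. Torin1 replicates 1, 2 and 3 had medians of -1.96, -2.26 and -2.04 for the small subunit and -1.74, -2.07 and -1.71 for the large subunit, relative to the WT mean.

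Rps6, the small-subunit protein that S6 kinases phosphorylate and the small-subunit gene with most reads, stood at 1050, 806 and 989 CPM in Torin1 replicates 1, 2 and 3, against 3969, 3745 and 4593 CPM in WT replicates 1, 2 and 3. Every Torin1 value was below every WT value, and the log2 change was -2.11 ± 0.19 (SE, adjusted p = 0.000516). Rps19, a small-subunit protein, fell the most of all genes with a mean of at least 10 CPM: it had 73.1, 39.9 and 87.0 CPM under Torin1 and 431, 428 and 713 CPM in WT (log2 -2.97 ± 0.34, adjusted p = 0.00108). Rpl8, the large-subunit gene with most reads, had 753, 713 and 650 CPM under Torin1, against 3636, 3101 and 3898 CPM in WT (log2 -2.33 ± 0.19, adjusted p = 0.000358). The groups did not overlap for any of these genes, and each of the 3 was called under all 12 alternatives. Large-subunit falls ranged from Rpl19 (log2 -1.15 ± 0.20) to Rpl37 (log2 -2.61 ± 0.28).

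The 7 large-subunit genes not called were Rpl32, Rpl41, Rplp1, Rpl29, Rpl27, Rpl38 and Rpl34, and all had estimates below 0. Rpl27 had a log2 change of -1.11 (adjusted p = 0.0536), Rpl38 -0.97 (adjusted p = 0.0874), Rplp1 -1.22 (adjusted p = 0.0872) and Rpl32 -1.92 (adjusted p = 0.0625). Rpl34 had at most 10.1 CPM in any library, with a 95% interval from -5.53 to 4.72. Reads that align to more than 1 place were not assigned to genes and were 22.18 to 35.02% of all counted reads; ribosomal protein genes have many processed pseudogenes, so their levels are uncertain, and how this bears on the changes was not tested. Of 6 tested paralogs of ribosomal protein genes, Rpl36al fell (log2 -1.66 ± 0.34, adjusted p = 0.0458), and Rpl7l1, which has a role in making the large subunit, stayed within 2-fold (log2 -0.37 ± 0.26).

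**Figure D2:**
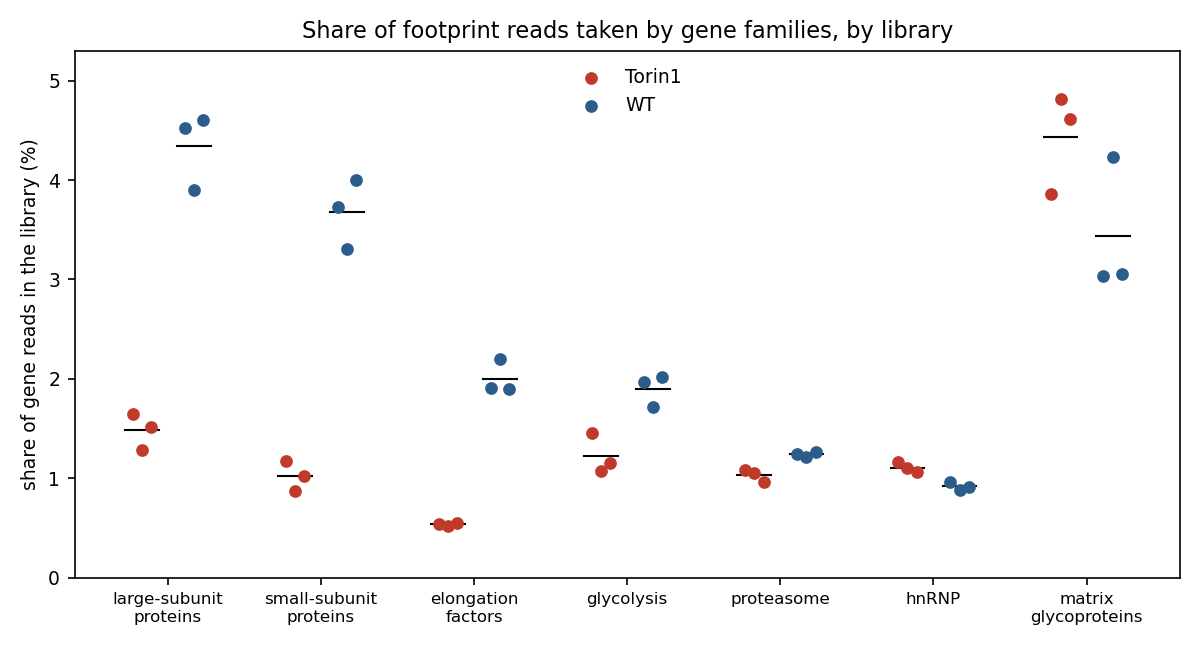
Share of gene reads in percent taken by 7 gene families, 1 point per library with Torin1 libraries on the left and WT libraries on the right of each pair, and a bar for the mean of 3. Large-subunit proteins held 1.65, 1.29 and 1.52% of reads in the Torin1 libraries and 4.53, 3.90 and 4.61% in the WT libraries, and small-subunit proteins 1.18, 0.875 and 1.03% against 3.73, 3.31 and 4.002%.

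Elongation factors carry the ribosome through each codon, and 5 of 11 tested members fell. Eef1a1, which brings aminoacyl-tRNA to the ribosome, had 1174, 1073 and 1121 CPM under Torin1 and 8449.5, 9952 and 7947 CPM in WT (log2 -2.97 ± 0.19, SE; adjusted p = 0.000123). The translocase gene Eef2 had 1006, 1199 and 1218 CPM under Torin1 and 5123, 8269 and 5346 CPM in WT (log2 -2.45 ± 0.23, adjusted p = 0.000516). The groups were far apart for both, and the Torin1 libraries differed little among themselves. The 3 other factors that fell form the exchange complex that reloads eEF1A with GTP: Eef1b2 (log2 -2.77 ± 0.41), Eef1g (-1.84 ± 0.18) and Eef1d (-1.04 ± 0.19). Eif5a, which helps ribosomes through proline-rich stretches, had 1200, 1665 and 1523 CPM under Torin1 and 1838, 2138 and 2792 CPM in WT, and was not called (log2 -0.63 ± 0.22, adjusted p = 0.287). Eef2k, the kinase that inhibits eEF2, was not called either (log2 0.95 ± 0.36, adjusted p = 0.354).

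The subunits of eIF3, the scaffold that brings the small subunit to mRNA, did not move as 1 block. Of 12 tested members 5 fell: Eif3f (log2 -1.91 ± 0.24, adjusted p = 0.00166), Eif3h (-1.36 ± 0.21, adjusted p = 0.00633), Eif3i (-1.34 ± 0.21, adjusted p = 0.00716), Eif3k (-1.13 ± 0.20, adjusted p = 0.0186) and Eif3e (-1.15 ± 0.22, adjusted p = 0.0319). Another 5 were held within 2-fold, namely Eif3a, Eif3b, Eif3c, Eif3d and Eif3g, with log2 changes of 0.41, -0.19, -0.25, -0.21 and -0.25. Eif3f had 71.4, 81.5 and 56.4 CPM under Torin1, against 270, 281 and 235 CPM in WT. Eif3a had 944, 976 and 851 CPM under Torin1, against 685, 718 and 687 CPM in WT, so its Torin1 values were the higher ones. As a ratio of reads within a library, Eif3f over Eif3a was 0.0757, 0.0836 and 0.0663 in Torin1 replicates 1, 2 and 3 and 0.395, 0.391 and 0.342 in WT replicates 1, 2 and 3; this pair and the pairs below were chosen after their values were seen. The 95% intervals of Eif3f (-2.43 to -1.39) and Eif3a (0.02 to 0.79) lie apart. Eif3l (-0.96 ± 0.28) and Eif3m (-0.55 ± 0.23) were not called.

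Initiation factors outside eIF3 had no single fall that passed. Of 34 tested members edgeR called 0, with 8 lower and 1 higher at an unadjusted p under 0.05, and DESeq2 called 6 lower. The median was -0.34, and 13 were held within 2-fold. Eif4a1, the helicase of the cap-binding complex and the 7th gene by reads, had 4039, 3808 and 3818 CPM under Torin1 and 5944, 5508 and 4636 CPM in WT (log2 -0.46 ± 0.18, 95% interval -0.85 to -0.08). Eif4g1, the scaffold that 4E-BP competes with, had a log2 change of 0.31 ± 0.19, also within 2-fold. Eif2s3x, the gamma subunit of eIF2, had the smallest p of the list and was not called (log2 -1.15 ± 0.26, adjusted p = 0.0725). Per library, the ratio of Eef1a1 to Eif4a1 reads was 0.291, 0.282 and 0.294 under Torin1 and 1.42, 1.81 and 1.71 in WT.

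**Figure D3:**
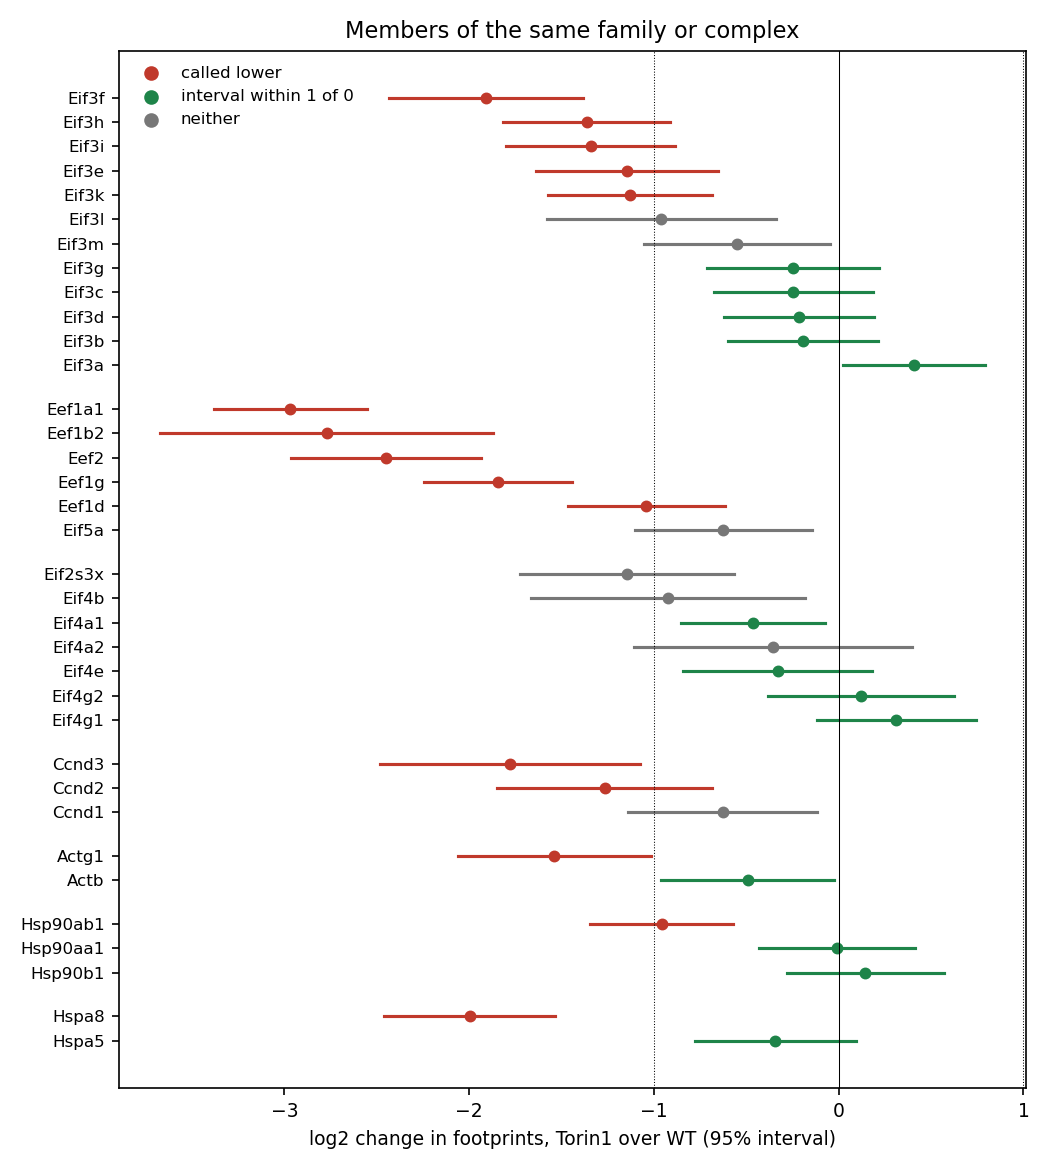
Log2 change in footprints, Torin1 over WT, with 95% intervals for chosen members of the same complex or family; red marks genes called lower, green those with an interval between -1 and 1, and grey the rest. Subunits of eIF3 run from -1.91 (Eif3f) to 0.41 (Eif3a), and Actg1, Hsp90ab1 and Hspa8 lie below their partners Actb, Hsp90aa1 and Hspa5.

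Of 36 mRNAs outside the ribosome that are described as TOP mRNAs, 19 fell, and all 36 had estimates below 0, with a median of -1.14. The list was written with earlier results of these data known, so these counts describe it and are no independent test. It shares its elongation factors and eIF3 subunits with the lists above. Tpt1, a growth-related protein, had 170, 165 and 231 CPM under Torin1 and 1267, 1481 and 1389 CPM in WT (log2 -2.87 ± 0.21, adjusted p = 0.000217). Pabpc1, the main cytoplasmic poly(A)-binding protein, had 89.4, 64.4 and 85.4 CPM under Torin1 and 472, 571 and 460 CPM in WT (log2 -2.65 ± 0.23, adjusted p = 0.000427). The groups did not overlap for either gene. Gnb2l1, the ribosome-bound scaffold also called RACK1, had 801, 937 and 701 CPM under Torin1 and 2891, 3453 and 3207 CPM in WT (log2 -1.97 ± 0.19, adjusted p = 0.000516). Smaller falls were measured for Ybx1, an mRNA-packaging protein (log2 -1.85 ± 0.23), Npm1, a nucleolar chaperone (-1.15 ± 0.19), Naca, which binds nascent chains (-1.01 ± 0.20), and Ppia, the cyclophilin A gene (-0.93 ± 0.18). Vim, the intermediate filament protein of fibroblasts and the 3rd gene by reads, had 5103, 5181 and 5769 CPM under Torin1 and 10314, 11480 and 8486 CPM in WT (log2 -0.92 ± 0.18, adjusted p = 0.0392).

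The 42 genes that fell outside those lists included the ribosomal protein paralog Rpl36al and genes of metabolism, mitochondrial transport, folding, the cytoskeleton and the cell cycle. Of the 42, 16 stood in none of the lists described here. Gapdh and Slc25a5, described here with their pathways, also stand in the list of other TOP mRNAs and are not among the 42. Of 19 tested glycolysis genes 5 fell, with a median of -0.55 for the list. Gapdh had 809, 462 and 455 CPM under Torin1 and 2691, 2461 and 1860 CPM in WT (log2 -2.02 ± 0.27, adjusted p = 0.00269), and is another gene with many pseudogenes. Pgam1 (-1.28 ± 0.23), Ldha (-1.17 ± 0.18), Aldoa (-1.12 ± 0.18) and Gpi1 (-1.01 ± 0.18) fell as well. Pkm, which makes pyruvate in the same pathway and was the 4th gene by reads, had 5071, 4133 and 3948 CPM under Torin1 and 5816, 5240 and 5890 CPM in WT, and was held within 2-fold (log2 -0.37 ± 0.18). Pgk1 (-0.77 ± 0.18, adjusted p = 0.0737) and Tpi1 (-0.80 ± 0.22, adjusted p = 0.145) were not called.

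Carriers of the inner mitochondrial membrane supplied 3 of the 4 falls among 147 tested solute carriers. The 4 are 2.72% of that list, against 1.24% of all genes tested, and the median of the list was -0.07. Slc25a4 and Slc25a5, which swap ADP for ATP, fell by 1.66 and 1.53 on the log2 scale, and so did Slc25a3, which carries phosphate (log2 -1.28 ± 0.19). Slc25a4 had 303, 272 and 252 CPM under Torin1 and 903, 808 and 905 CPM in WT (adjusted p = 0.00103), with no overlap. The outer-membrane channel gene Vdac1 fell by 1.17 on the log2 scale (adjusted p = 0.0186). Among 43 respiratory genes of complexes II to V, 2 fell, both of the ATP synthase: Atp5g2, a membrane-ring subunit (log2 -1.82 ± 0.32, adjusted p = 0.0176), and Atp5d (-1.25 ± 0.22, adjusted p = 0.0186). Atp5b, the catalytic subunit, had 2183, 1940 and 1756 CPM under Torin1 and 2690, 2918 and 2708 CPM in WT and was held within 2-fold (log2 -0.50 ± 0.17). None of 36 complex I genes was called by edgeR, with 9 lower and 0 higher at an unadjusted p under 0.05 and 3 lower by DESeq2; their median was -0.49. Of 77 genes with Mrpl or Mrps symbols, the series named for mitochondrial ribosomal proteins, Mrps36 fell (-1.85 ± 0.38, adjusted p = 0.0429). Whether the Mrps36 product belongs to that ribosome was not checked, and the median of the list was -0.34. That 1 fall is 1.30% of the list, near the 1.24% of all genes tested.

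The other carrier that fell, Slc7a5, imports leucine and other large amino acids, and is also 1 of 3 falls among 28 amino acid response genes, which had a median of -1.08. It had 126, 80.0 and 101 CPM under Torin1 and 259, 336 and 342 CPM in WT (log2 -1.61 ± 0.25, adjusted p = 0.007). The serine synthesis genes Psat1 (-1.59 ± 0.23, adjusted p = 0.00495) and Phgdh (-1.11 ± 0.21, adjusted p = 0.0255) were the others. Slc38a2, a neutral amino acid transporter and the member with most reads, was held within 2-fold (log2 0.08 ± 0.18). Of 34 cholesterol and fatty acid synthesis genes 3 fell, Idi1 (-1.53 ± 0.31), Mvd (-1.38 ± 0.23) and Fasn (-1.14 ± 0.21). The median of that list was -0.75. At an unadjusted p under 0.05, 24 of the 34 were lower, against 639 of all 10567 genes tested. Ahcy, which clears S-adenosylhomocysteine and stood in none of the lists, fell by 1.67 on the log2 scale (adjusted p = 0.00338) and was called under all 12 alternatives.

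Some close relatives within a family had unlike values. The relatives were chosen after their values were seen, and the difference between them was not tested. Other pairs had ratios that overlapped between the groups. Ccnd2 over Ccnd1 was 0.341, 0.708 and 0.262 in Torin1 replicates 1, 2 and 3 and 0.643, 0.478 and 0.737 in WT replicates 1, 2 and 3. Slc25a5 over Slc25a3 and Thbs2 over Thbs1 overlapped as well. Actg1, the gamma cytoplasmic actin, had 2546, 2105 and 2208 CPM under Torin1 and 6178, 8895 and 4875 CPM in WT (log2 -1.54 ± 0.24, adjusted p = 0.00714). Actb, the beta actin and the gene with most reads, had 8506, 10258 and 7809 CPM under Torin1 and 11234, 15837 and 10316 CPM in WT; it was held within 2-fold (log2 -0.49, 95% interval -0.96 to -0.02). The ratio of Actg1 to Actb reads was 0.299, 0.205 and 0.283 in the Torin1 libraries and 0.550, 0.562 and 0.473 in the WT libraries, with no overlap. Reads that both actins share were not counted for either.

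Chaperones gave further such pairs. Hspa8, the constitutive cytosolic Hsp70, had 1924, 1277 and 1587 CPM under Torin1 and 6075, 7175 and 5869 CPM in WT (log2 -1.997 ± 0.21, adjusted p = 0.000671). Hspa5, the Hsp70 of the endoplasmic reticulum, was held within 2-fold (log2 -0.34 ± 0.20), and the ratio of Hspa8 to Hspa5 reads was 1.11, 0.581 and 1.07 under Torin1 and 2.71, 2.96 and 2.67 in WT. Hsp90ab1 had 3700, 3248 and 2971 CPM under Torin1 and 6297, 6827 and 6141 CPM in WT (log2 -0.96 ± 0.17, adjusted p = 0.0227), while Hsp90aa1, the stress-inducible form, stayed at 2703, 3220 and 2290 CPM under Torin1 and 2575, 3042 and 2649 CPM in WT (log2 -0.01 ± 0.19). The median of 24 cytosolic chaperone genes was -0.37. Of 9 subunits of the TRiC chaperonin, which folds actin and tubulin, Cct2 fell (-1.13 ± 0.23, adjusted p = 0.046) and 5 were held within 2-fold. Of 23 genes for folding in the endoplasmic reticulum, P4hb, a disulphide isomerase and subunit of prolyl hydroxylase, fell (-1.18 ± 0.19, adjusted p = 0.00884).

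Cyclins D2 and D3, partners of the kinases that start the cell cycle, fell, with log2 changes of -1.27 ± 0.26 for Ccnd2 (adjusted p = 0.046) and -1.78 ± 0.32 for Ccnd3 (adjusted p = 0.019). Ccnd3 had 46.6, 26.6 and 32.8 CPM under Torin1 and 103, 112 and 148 CPM in WT. Ccnd1 had 299, 197 and 332 CPM under Torin1 and 389, 448 and 443 CPM in WT, with no overlap, and was not called (log2 -0.63 ± 0.23, adjusted p = 0.328). Of 42 cell cycle genes at any rank 21 were held within 2-fold (50%), Pcna among them (log2 -0.21 ± 0.18). The share was 15.9% over all genes tested and 53.2% over genes at ranks 1 to 2000, and the 42 were not split by rank. Of 11 tubulins Tuba4a fell (-1.60 ± 0.24, adjusted p = 0.00675); Tubb5, the one with most reads, was not called (-0.69 ± 0.19, adjusted p = 0.144), and 10 of the 11 had estimates below 0.

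Of 19 hnRNP genes, which package and splice pre-mRNA, 15 were held within 2-fold, and their median was -0.03. Those 15 were among the 17 members at ranks 1 to 2000, where 1064 of all 2000 genes (53.2%) were held. Hnrnpa2b1 had 1481, 1574 and 1512 CPM under Torin1 and 1657, 1516 and 1483.5 CPM in WT (log2 -0.03 ± 0.17). Of 18 SR splicing factors 12 were held within 2-fold, of 56 ribosome biogenesis genes 33, of 22 tRNA synthetases 13 and of 44 lysosome genes 26. Of the SR factors 13 had estimates below 0. EdgeR called 0 genes in these 5 lists; at an unadjusted p under 0.05 it found 1, 4, 5, 3 and 7 lower and 1, 0, 0, 0 and 1 higher, in that order, and DESeq2 called 0, 0, 2, 2 and 3 lower and 1, 0, 0, 0 and 0 higher. Ribosome biogenesis genes, which build the particle, had a median of -0.18, and Ncl, the nucleolin gene, had a log2 change of -0.21 ± 0.20.

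Proteasome genes, whose products degrade tagged proteins, had estimates mostly below 0, with no single call. Of 45 tested, 42 had estimates below 0, with a median of -0.43 and library medians of -0.37, -0.39 and -0.46 in Torin1 replicates 1, 2 and 3. At ranks 1 to 2000 all 34 members were below 0, where 41.4% of all genes were above 0. EdgeR called 0 of the 45, and 20 were held within 2-fold. At an unadjusted p under 0.05 edgeR found 15 lower, against 639 of all 10567 genes tested, and DESeq2 called 7 lower. Psmd2, the member with most reads, had 622, 666 and 582 CPM under Torin1 and 745, 726 and 826 CPM in WT (log2 -0.30 ± 0.18).

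**Figure D4:**
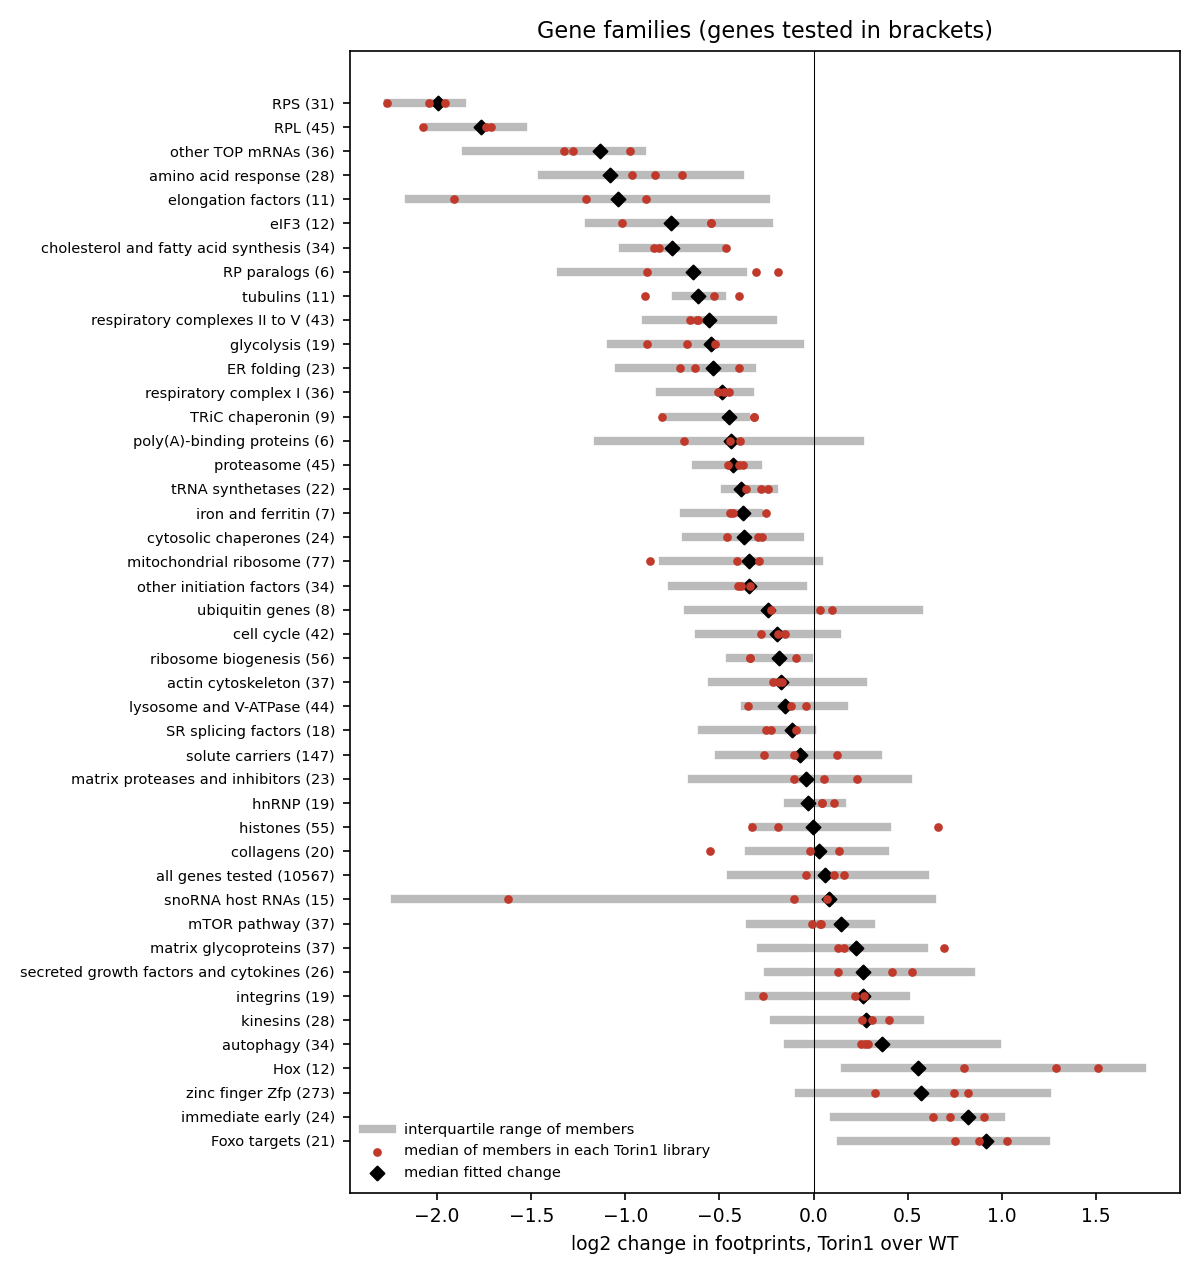
Median fitted log2 change, Torin1 over WT, of each gene list with at least 5 tested genes (diamonds), the interquartile range of its members (grey bars) and the median of its members in each of the 3 Torin1 libraries relative to the WT mean (red points). The ribosomal protein lists (-1.996 for RPS, -1.77 for RPL) lie farthest below the median of all genes (0.06), and Foxo targets (0.92) farthest above.

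Secreted matrix genes went both ways. Of 37 matrix glycoprotein genes 2 fell and 1 rose, with a median of 0.22. Serpinh1, the collagen chaperone of the endoplasmic reticulum, had 523, 312 and 411 CPM under Torin1 and 1219, 2064 and 1305 CPM in WT (log2 -1.88 ± 0.27, adjusted p = 0.00489). Bgn, the proteoglycan biglycan, fell by 1.04 on the log2 scale (adjusted p = 0.0336). Fn1, fibronectin and the 2nd gene by reads, had 7217, 12659 and 12794 CPM under Torin1 and 5064, 8340 and 5874 CPM in WT; the groups overlapped, and it was not called (log2 0.76 ± 0.27, adjusted p = 0.293). Of 20 collagen genes edgeR called 0, with 3 lower and 1 higher at an unadjusted p under 0.05 and 3 lower by DESeq2. Col1a1 had 1410, 1945 and 2393 CPM under Torin1 and 2996, 6263 and 5560 CPM in WT (log2 -1.37 ± 0.29, adjusted p = 0.0551). The prolyl hydroxylase gene P4ha1 (-0.94 ± 0.19) and Crtap (-1.30 ± 0.27), both of which modify collagen prolines, fell.

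The 9 genes that rose were Klhl24, Pdcd4, Hbp1, Tcf7l2, Pdgfra, Fgfr1, Nbr1, Thbs2 and Akap2. Thbs2, a secreted thrombospondin, had 2964, 3285 and 3744 CPM under Torin1 and 1576, 1223 and 1200 CPM in WT (log2 1.32 ± 0.19, adjusted p = 0.00563), and it is the 1 rise among the 50 most read genes. Hbp1, a transcription repressor that slows the cell cycle, had 122, 140 and 141 CPM under Torin1 and 43.4, 35.3 and 38.9 CPM in WT (log2 1.78 ± 0.26, adjusted p = 0.00524), and it was the 1 of the 9 that was called under all 12 alternatives. Every Torin1 library exceeded every WT library for both.

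Pdcd4, an inhibitor of the eIF4A helicase that S6 kinase marks for destruction, had 56.3, 73.0 and 121 CPM under Torin1 and 18.1, 17.6 and 23.5 CPM in WT (log2 2.08 ± 0.40, adjusted p = 0.0301, called in 8 of 12 alternatives). Receptor tyrosine kinases were among the rises: Pdgfra had 498, 567 and 929 CPM under Torin1 and 221, 235 and 287 CPM in WT (log2 1.42 ± 0.26, adjusted p = 0.0228), and Fgfr1 had 535, 920 and 686 CPM under Torin1 and 315, 243 and 267 CPM in WT (log2 1.37 ± 0.24, adjusted p = 0.0159). Pdgfrb, the sister of Pdgfra, was held within 2-fold (log2 0.43, 95% interval -0.05 to 0.92). The ratio of Pdgfra to Pdgfrb reads was 2.09, 2.39 and 3.12 under Torin1 and 1.24, 1.40 and 1.26 in WT. Nbr1, a cargo receptor of autophagy, rose (log2 1.33 ± 0.27, adjusted p = 0.046, called in 4 of 12), as did Klhl24 (2.11 ± 0.41, adjusted p = 0.031), Tcf7l2, a transcription factor of Wnt signalling (1.67 ± 0.32, adjusted p = 0.027), and Akap2, an anchor of protein kinase A (1.02 ± 0.21, adjusted p = 0.046).

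**Figure D5:**
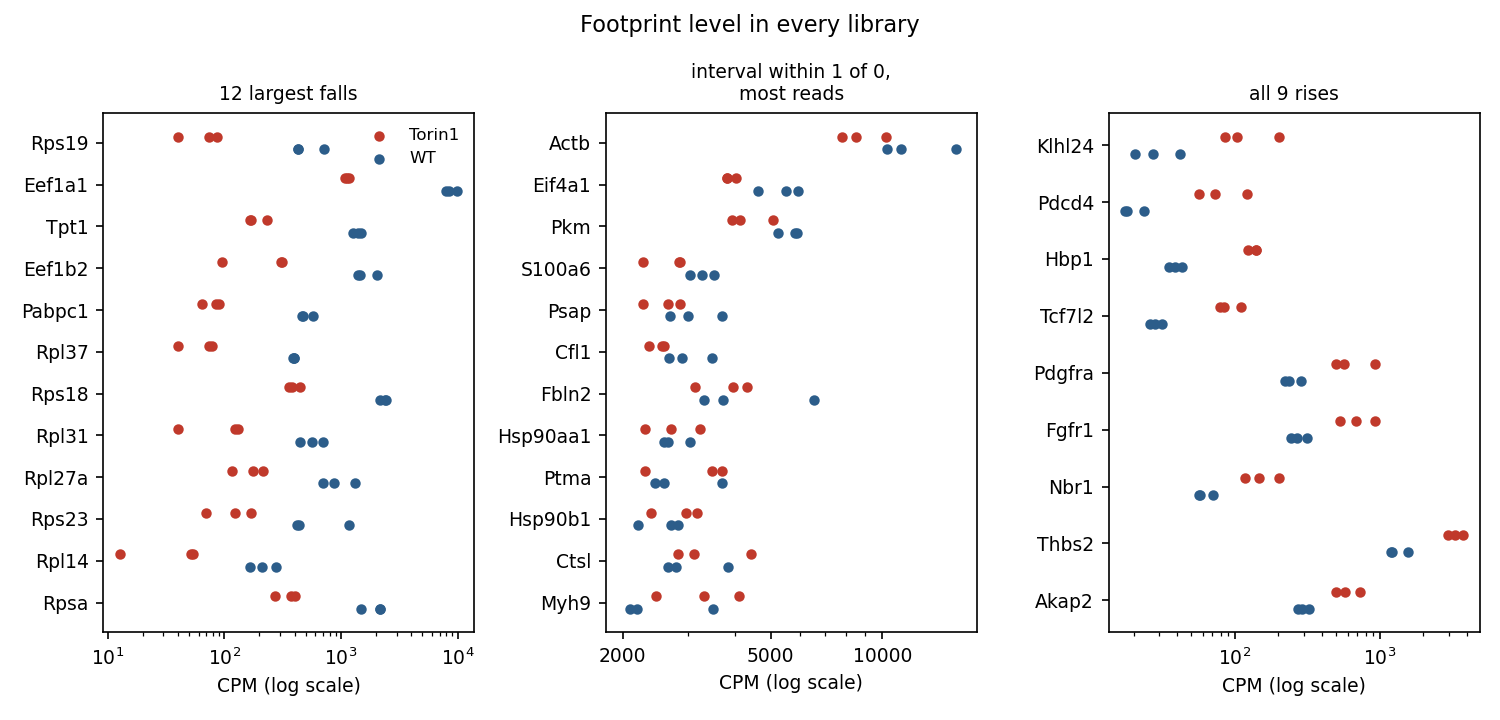
Footprint level in CPM on a logarithmic axis in each library, Torin1 (red) above WT (blue), for the 12 largest falls, the 12 genes with most reads among those held within 2-fold, and all 9 rises. Groups are apart in the left and right panels (Eef1a1 1073 to 1174 CPM under Torin1 and 7947 to 9952 CPM in WT) and overlap or lie close in the middle one.

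Lists of regulatory genes with few reads had medians above 0. Foxo target genes had a median of 0.92 over 21 tested genes, with 5 below 0, and immediate early genes a median of 0.82 over 24 tested genes, with 5 below 0. EdgeR called 0 genes in either. At an unadjusted p under 0.05 it found 0 lower and 5 higher among Foxo targets, and 1 lower and 10 higher among immediate early genes. Of all 10567 genes 504 were higher at that threshold (4.77%). DESeq2 called 2 Foxo targets and 4 immediate early genes higher. Irs2, an insulin receptor substrate, had 96.0, 95.8 and 88.9 CPM under Torin1 and 31.7, 52.6 and 34.9 CPM in WT (log2 1.23 ± 0.31, adjusted p = 0.111). Txnip, which binds thioredoxin and restrains glucose uptake, had 42.4, 122 and 80.0 CPM under Torin1 and 5.18, 24.0 and 11.3 CPM in WT (log2 2.59 ± 0.60, adjusted p = 0.0811). Both had groups that did not overlap and did not pass the threshold. Cat, the Foxo target with most reads, had 109, 79.6 and 144 CPM under Torin1 and 113, 101 and 86.2 CPM in WT. Its groups overlapped, and it was held within 2-fold (log2 0.15 ± 0.28, adjusted p = 0.946). Of 34 autophagy genes, Nbr1 was the 1 that rose, the median was 0.37, and Sqstm1, the cargo receptor with most reads, was held within 2-fold (log2 0.20 ± 0.17).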

How the data were processed

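Footprint counts per gene were analysed for 3 Torin1 and 3 WT libraries, grouped by their titles. The authors deposited whole-number read counts per gene and library, not normalized. Per the submitters' processing notes, build mm10 was used with HTSeq, TopHat2 2.1.1 and Bowtie 1.1.2, and their settings were not given in these sources. Per the labels' protocols, footprints were cut with RNase I and size-selected on gels. No molecular identifiers are mentioned, so PCR copies count as reads, and the floor of 3 reads (0.0701 to 0.249 ppm of a library) covers counting error only. Each of the 6 tables lists 24035 genes. The 5 summary lines, 27 date-named rows (0.138 to 0.163% of gene counts) and Tmem38b were left out before scaling, and reads outside genes were 4.28 to 12.6% of reads inside and outside genes.

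Counts were tested with edgeR 4.0.16 in R 4.3.3 (filterByExpr, TMM factors, quasi-likelihood test on group means of the 6 libraries, Benjamini-Hochberg adjustment over all genes tested, threshold 0.05). CPM values follow TMM scaling. The 95% interval of a log2 change came from its standard error and the fit's degrees of freedom. The script was checked on simulated counts with 1 biological coefficient of variation for all genes, below the 0.532 median of these data. The check therefore gives no error rate at the noise of these libraries. Named genes were the 12 largest falls and up to 10 largest rises that averaged 10 CPM or more, the 15 genes with most reads, the 12 most read genes held within 2-fold, and the most read and smallest-p member of each list; other genes named, and all ratios between pairs, were chosen after their values were seen. The members, lists and tests were chosen with earlier results of these data known. Gene symbols matched RefSeq GRCm38.p6, also through synonyms, for 10536 of 10567 tested genes; start sequences are RefSeq's. Alternatives were DESeq2 1.42.0 (size factors, and its test), no filter, Tmem38b kept, the replicate number as a block, each library left out, ranks by the WT mean, a wider window for the start motif and, added after seeing the data, protein-coding genes only.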

Additional observations from a re-analysis of the deposited data

How the results depend on the processing

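Of 1332 refits of named genes 1185 were unchanged, 100 lost the call, 47 gained it and 0 were counted as reversed. Named genes that were not called, such as Actb, are in this count, and staying uncalled counts as unchanged. This count follows calls, and an estimate near 0, such as that of Hnrnpa2b1, can change sign without entering it. Of 516 refits of list medians 70 moved by more than the spread between libraries. Of the genes that fell, 77 of 131 were called under all 12 alternatives and 12 in 6 or fewer; of those that rose, 1 of 9 and 3. With no filter 247 genes were lower and 70 higher, by DESeq2 333 and 100, and with the replicate number as a block 180 and 21; the cause was not tested. The titles share replicate numbers, and the labels do not say what a number marks. Same-numbered libraries deviated together with r = 0.103, 0.107 and 0.0781, of which 2 of 3 passed 0.1, so the numbers were not taken as pairs; each library correlated best with its own number, a hint from the data and not the design. Leaving out 1 library gave 83 to 112 lower, 3 to 11 higher, 984 to 1882 held within 2-fold, and medians for ranks 1 to 50 of -0.42 to -0.32. That median was -0.40 on protein-coding genes alone and -0.63 when genes were ranked by the WT mean, which favours genes high in WT by construction. In a window of 10 bases either side of the start, 36.8% of all genes with a start held a motif. The median standard error was 1.15 past rank 5000, which limits what could be called there.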

Other observations

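Reads on small structured RNAs, which ribosomes do not translate, were a larger share of the Torin1 libraries. Genes of small nucleolar RNAs, which guide modification of ribosomal RNA, took 0.951, 1.55 and 1.51% of gene reads in Torin1 replicates 1, 2 and 3, and 0.438, 0.579 and 0.906% in WT replicates 1, 2 and 3, with no overlap between the groups. RNase P RNA, which trims tRNA, took 0.260, 0.253 and 0.259% in the Torin1 libraries and 0.0920, 0.0986 and 0.146% in the WT libraries, also without overlap. Rmrp, the RNA of RNase MRP and the 14th gene by reads, had 1920, 10096 and 3921 CPM under Torin1 and 838, 4562 and 3280 CPM in WT, and the groups overlapped. Rnu11, a small RNA of the minor spliceosome and the 8th gene by reads, had 3430, 3652 and 11302 CPM under Torin1 and 2049, 2008 and 4495 CPM in WT. None of 252 tested genes that RefSeq does not class as protein-coding was called by edgeR; 3 were lower and 16 higher at an unadjusted p under 0.05, and DESeq2 called 4 higher. A fit on protein-coding genes alone called 137 genes lower and 11 higher, with all 131 and 9 calls of the full fit among them.

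Zinc finger genes of the Zfp series, most of which encode DNA-binding proteins with few reads, had a median log2 change of 0.57 over 273 tested genes of 354 in the files, and 72 were below 0. Past rank 5000, where 247 of them stood, their median was 0.58 against 0.18 for all genes of those ranks, and among the 3000 genes before that it was 0.53 against 0.06. EdgeR and DESeq2 called 0 of them, and 0 were lower and 13 higher (4.76%) at an unadjusted p under 0.05, against 504 of all 10567 genes higher (4.77%). Kinesin genes, motors that walk along microtubules, had a median of 0.28 over 28 tested, and all 6 at ranks 1 to 2000 were above 0. Past rank 5000 their median was -0.23, with 4 of 11 above 0, against a median of 0.18 for all genes there. Hox genes had a median of 0.56 over 12 tested of 39 in the files, with at most 72.3 CPM in a Torin1 library and 38.8 CPM in a WT library for Hoxa7, the one with most reads. Gas5, a snoRNA host RNA that starts with a pyrimidine run and is not thought to make a protein, had 462, 3514 and 1671 CPM under Torin1 and 366, 844 and 1582 CPM in WT (log2 1.02 ± 0.64, adjusted p = 0.663 by edgeR's quasi-likelihood test), so its libraries differed within groups as much as between them.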
